A study of Mus musculus with 18 samples.

Results

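The response described here is the average difference between transplanted and cultured fibroblasts over 3 organs, and how evenly heart, kidney and tail cells shared it. All 18 libraries of the series entered, 9 from transplanted cells (heart HFs, kidney KFs, tail TFs) and 9 from cultured cells (HFc, KFc, TFc), with 3 libraries in each of 6 groups. Organ was an additive factor, so each gene received 1 log2 fold change of transplanted over cultured cells. Donors were Rosa mT/mG males of 10 weeks with a C57BL/6 background, whose cells all carry membrane TdTomato until a Cre acts, and their fibroblasts had spent 10 days in culture before they were divided. One portion was placed on gelatin foam beneath the kidney capsule of syngeneic adult C57BL/6J hosts and sorted 3 days later as CD45-;TdTomato+ cells. The portion left over was replated as the cultured control. The host site was the kidney for all 3 organs, so heart and tail cells met a foreign organ whereas kidney cells met their own. Grafting, removal from plastic, dissociation of the host kidney and the sort came together in the transplanted libraries and cannot be told apart, and whether cultured cells were sorted is not given in the sources used here.

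Fibroblasts make and remodel the collagenous matrix of every organ. On stiff plastic in serum they become contractile and spread, through actin stress fibres and the transcriptional regulators SRF and YAP, while tissue injury exposes them to cytokines that act through NF-kB, STAT and interferon regulatory factors. In a wound the same cells release chemokines and complement proteins and lay down collagen, and a low oxygen supply stabilises hypoxia-inducible factors.

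Library totals lay between 17927838 and 32245168 counts. The library KFs replicate 3 went against its label as cells of a male donor: *Xist* stood at 1716 CPM (CPM, counts scaled to a common library size) and at most 0.396 CPM in the other libraries, and 4 Y-linked genes summed to 0.830 CPM against at least 173 CPM in every other library. Its log2 levels correlated with those of the other KFs libraries at 0.917 and 0.918, below the 0.965 or more of other pairs within a group. The average response is therefore also given without this library. Summed fibroblast markers (9 genes) lay between 19721 and 125370 CPM in transplanted and between 15281 and 21018 CPM in cultured libraries, and KFs replicate 3 was the lowest of the transplanted ones. Most of this sum came from *Col1a1*, *Col1a2* and *Col3a1*, which rose. A second list of 20 fibroblast identity genes, without collagens, summed to 5521 to 8335 CPM in transplanted and 8849 to 11943 CPM in cultured libraries. Of these 20 genes 5 rose and 2 fell (median -0.18), against 16.4% and 6.35% of all genes tested. Without a limit on fold change 6 of the 20 were higher and 9 lower at an adjusted p below 0.05.

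Across organs, 2711 of 16577 genes tested rose after transplantation (16.4%) and 1052 fell (6.35%; 22.7% in either direction) at an adjusted p below 0.05 and a log2 fold change beyond 1 in either direction (edgeR quasi-likelihood test, Benjamini-Hochberg). The rises were also larger: 1205 genes rose more than 4-fold and 338 more than 16-fold, against 285 and 32 that fell by as much. All 9 transplanted libraries lay above all 9 cultured libraries for 1106 genes (6.67%) and below them for 1146 genes (6.91%). The median log2 fold change over all genes tested was 0.06. Without KFs replicate 3, 2682 genes rose and 1151 fell, of which 2465 and 992 were in common. Long non-coding genes made up 13.5% of the genes that rose and 6.55% of those tested, while protein-coding genes made up 75.9% and 87.7%.

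Genes with large average rises included tubule genes and inflammatory genes. Of the 15 largest rises among protein-coding genes free of overlap with a mean of at least 10 CPM in the higher state, 9 encode enzymes, transporters or secreted proteins of kidney tubules. *Kap*, an androgen-regulated kidney protein (chr6:133849851-133853762; gene positions are in GRCm38), had 0 counts in all cultured libraries and lay between 1.2 and 296 CPM (median 20.9) in transplanted ones, at least 409-fold higher against a floor of 3 counts per library, or at least 131-fold without HFs replicate 2. *Slc34a1*, the phosphate carrier of the proximal tubule (chr13:55398187-55415592), lay between 3.33 and 174 CPM (median 16.2) after transplantation and at most 0.219 CPM in culture. *Umod*, uromodulin of the loop of Henle (chr7:119462711-119479282), rose at least 106-fold, and *Pck1*, a gluconeogenic enzyme, at least 178-fold. For each of these genes HFs replicate 2 held the highest value.

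The host tissue was the kidney, and its markers moved with the average response. All 22 proximal tubule markers tested rose on average, 17 of them in each organ. Their sums lay between 253 and 2049 CPM in HFs against 42.7 to 44.2 CPM in HFc, and between 247 and 604 CPM in TFs against 25.7 to 29.8 CPM in TFc. In kidney fibroblasts the sums overlapped, at 117 to 224 CPM in KFs and 144 to 148 CPM in KFc, although 20 of the 22 markers lay above 0 there. The median log2 fold change of this list was 8.73 in heart, 5.97 in kidney and 8.13 in tail fibroblasts. Of 12 markers of the loop, distal tubule and collecting duct 10 were tested and rose on average, 6 in each organ. Their sums lay between 12.9 and 96.7 CPM against at most 0.831 CPM. With so little in culture, they passed the filter on low counts through transplanted libraries, which favoured a rise. Of 7 erythroid markers 6 were tested and rose on average, 1 in each organ. Their sums went from 0 CPM in every cultured library to between 0.120 and 43.7 CPM. At 0 in culture, they passed the filter on low counts only through transplanted libraries, so they could only rise. Of 14 markers of leukocytes and macrophages 9 fell on average and 0 rose, but 0 fell in each organ. Their sums were 15.1 to 176 CPM in KFs against 539 to 590 CPM in KFc and 46.8 to 55.1 CPM in TFs against 203 to 234 CPM in TFc, whereas HFs (115 to 192 CPM) overlapped HFc (129.9 to 149 CPM). The list's median was 0.20 in heart, -2.65 in kidney and -1.995 in tail fibroblasts, and *Ptprc*, which encodes CD45, averaged 5.65 and 8.47 CPM (not called). Other leukocyte markers were higher where they passed the filter on low counts. Of 6 neutrophil markers 2 were tested, *Csf3r* and *Cxcr2*, and both rose, with sums of 15.3 to 20.1 CPM in transplanted and 5.90 to 11.8 CPM in cultured libraries (1 of them without KFs replicate 3). Of 7 lymphocyte markers 1 was tested, *Cd3d*, which rose in each organ, from 0.393 to 1.31 CPM in culture to 2.82 to 6.19 CPM. Of 6 epithelial markers 3 rose, and their sum reached 138.7 CPM in KFs replicate 3, with 22.1 CPM the next highest transplanted value and 2.46 to 29.9 CPM in culture. Of 11 endothelial markers 7 rose and 1, *Ptprb*, fell on average. Their sums were 132 to 149 CPM in HFs against 433 to 459 CPM in HFc, 105 to 121 CPM in KFs against 95.8 to 101 CPM in KFc and 62.4 to 78.1 CPM in TFs against 41.8 to 46.8 CPM in TFc. Sums weigh abundant members most. The median log2 fold change of the endothelial list was 3.07 in heart, 1.13 in kidney and 0.57 in tail fibroblasts, and 2 of the 11 genes lay below 0 in heart. Of 5 podocyte markers 3 rose on average, with sums of 526 to 598 CPM in HFs against 831 to 853 CPM in HFc, and higher sums after transplantation in the other organs. The podocyte list's median was 1.93 in heart, 0.94 in kidney and 0.58 in tail fibroblasts, and 1 of the 5 genes lay below 0 in heart. The part of host RNA in the other results was not tested. In bulk RNA, fewer cells of a type and less RNA per cell cannot be told apart.

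**Figure D1:**
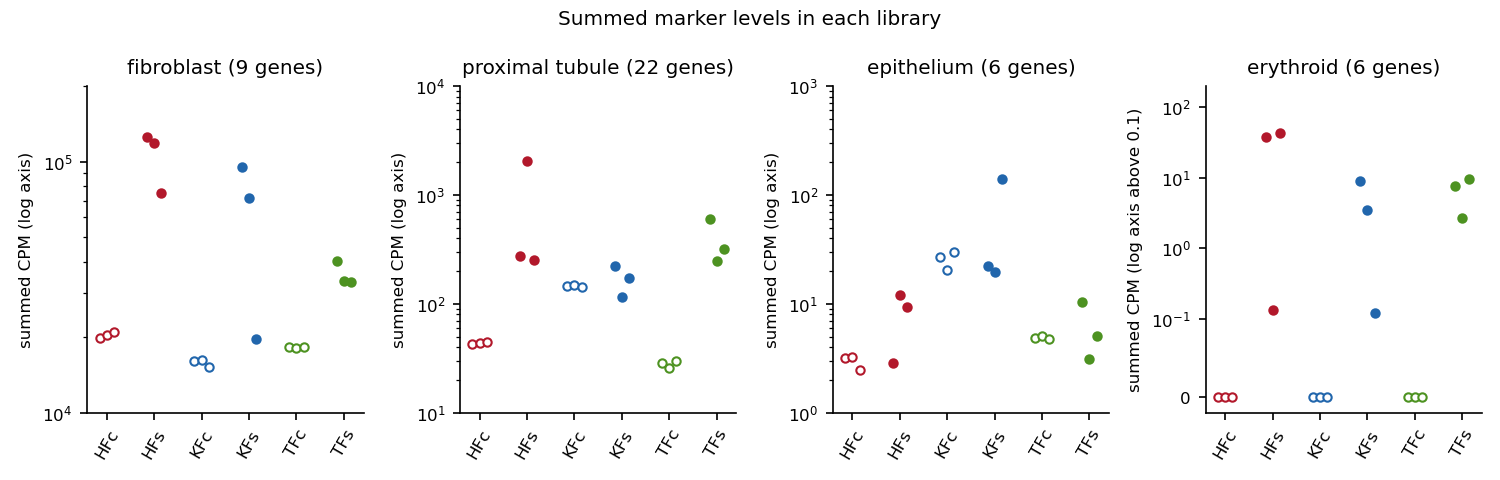
Summed CPM of 4 marker lists (vertical axes logarithmic, linear below 0.1 CPM for the erythroid list) in each library of the 6 groups, with open points for cultured and filled points for transplanted libraries. Erythroid markers were at 0 in all 9 cultured libraries, and KFs replicate 3 was lowest among the transplanted libraries for fibroblast markers and highest for epithelial markers.

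Acute phase and inflammatory enzyme genes rose by a wide margin. Of 14 tested, 11 rose and 0 fell, with a median log2 fold change of 5.44, and 9 were called in each organ on its own. *Serpina3g*, a protease inhibitor, lay between 27 and 174 CPM (median 59.3) after transplantation and between 0.873 and 4.71 CPM (median 2.73) in culture (4.87 ± 0.25, log2 fold change ± SE; adjusted p = 3.38e-10). *Steap4*, a metalloreductase of inflamed tissue, rose by 7.63 ± 0.39. *Nos2*, the inducible nitric oxide synthase (chr11:78920787-78960254), was under the floor in all 9 cultured libraries and lay between 8.34 and 146 CPM (median 31.9) in transplanted ones, at least 448-fold higher. *Saa3*, a serum amyloid protein, lay between 1.76 and 939 CPM (median 165) and at most 0.314 CPM in culture, and its lowest transplanted value was that of KFs replicate 3. *Ptgs2*, cyclooxygenase 2, was an exception at -0.15 ± 0.43 (adjusted p = 0.775), with organ values of 1.70 in heart, -0.53 in kidney and -1.47 in tail fibroblasts (interaction adjusted p = 0.00341).

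Chemokines rose broadly, 15 of 21 against 1, *Ccl17*, that fell (median 2.99), and 8 rose in each organ. *Cxcl1*, a neutrophil attractant (chr5:90891241-90893115), lay between 45.6 and 105 CPM (median 79.1) in transplanted and between 0.838 and 6.67 CPM (median 3.64) in cultured libraries (4.51 ± 0.33; adjusted p = 9.61e-09). *Cxcl2*, which acts on the same receptor, rose by 6.44 ± 0.46, and *Cxcl9*, an attractant of T cells induced by interferon gamma, by 8.85 ± 0.72. *Cxcl12*, which holds progenitor and immune cells in place, rose by 2.99 ± 0.30 and reached 1262 CPM, but KFs replicate 3 had 34.5 CPM, within the cultured range. *Ccl2*, the main monocyte attractant, rose by 1.33 ± 0.27 with organ values of 0.61 in heart, 0.81 in kidney and 2.61 in tail fibroblasts, and without tail fibroblasts its average was 0.70. Among cytokines, 4 of 15 rose and 2 fell (median 0.32), against 16.4% and 6.35% of all genes tested. *Il33*, an alarmin of stromal nuclei (chr19:29925114-29960718), rose by 8.35 ± 0.43 from between 0.0297 and 0.942 CPM (median 0.224) to between 24.4 and 239 CPM (median 158). *Csf1*, the macrophage growth factor, fell by 2.15 on the log2 scale, from between 1850.0 and 2105 CPM (median 1962) to between 332 and 736 CPM (median 402), with no overlap. *Il6* missed the threshold on average (1.52 ± 0.65; adjusted p = 0.0527), while its organ values were -0.38 in heart, 1.15 in kidney and 5.24 in tail fibroblasts (interaction adjusted p = 4.32e-04). Without KFs replicate 3 its average of 1.57 was called (adjusted p = 0.0492).

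NF-kB feedback and target genes rose in 13 of 21 cases with 0 falling (median 1.51), and 15 of the 21 differed between organs by the interaction test, against 33.8% of all genes tested. *Irf1*, an interferon regulatory factor (chr11:53770014-53778374), was the steadiest: 2.49 in heart, 2.48 in kidney and 2.41 in tail fibroblasts, with transplanted libraries between 30.9 and 116 CPM (median 48.3) and cultured ones between 6.3 and 16.6 CPM (median 7.95). *Nfkbia*, the inhibitor that ends NF-kB activity, rose by 2.26 ± 0.17 and *Nfkbiz* by 1.93 ± 0.15. *Tnfaip3*, which encodes the ubiquitin-editing enzyme A20, rose by 2.77 ± 0.34 but ranged from 1.50 in heart to 4.38 in tail fibroblasts (interaction adjusted p = 3.63e-05).

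The promoter of *Nfkbia* is shown because it holds a match to an NF-kB site (letters GGGANTTTCC on either strand, in capitals) among the 250 bases before the gene's start (chr12:55492648-55492897, minus strand, RefSeq, GRCm38.p6). Such a match was present in 2 of 16 promoters of this list, 3 of 14 of chemokines and 0.439% of 11833 promoters of all genes tested. A match describes letters and not binding.
Nfkbia: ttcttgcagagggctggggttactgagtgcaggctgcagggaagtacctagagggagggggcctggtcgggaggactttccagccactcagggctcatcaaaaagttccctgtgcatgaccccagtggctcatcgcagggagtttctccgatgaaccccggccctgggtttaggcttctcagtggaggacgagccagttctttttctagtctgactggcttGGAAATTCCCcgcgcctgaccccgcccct

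Of the interferon-stimulated genes, 26 of 29 were called higher and 0 lower (median 2.78), 19 of them in each organ. *Iigp1*, an immunity-related GTPase, lay between 3.01 and 174 CPM (median 39.6) in transplanted and between 0.0665 and 1.49 CPM (median 1.13) in cultured libraries (6.00 ± 0.43; adjusted p = 9.64e-09). *Oasl2*, an oligoadenylate synthetase-like protein, rose by 3.87 ± 0.35, *Igtp* by 2.78 ± 0.26 and *Irf7*, an interferon regulatory factor, by 3.08 ± 0.39. Sizes differed between organs for 16 of the 29. The median was 4.52 in tail, 2.41 in heart and 2.04 in kidney fibroblasts, and *Isg15*, a ubiquitin-like modifier, had organ values of 2.29 in heart, 2.18 in kidney and 5.46 in tail fibroblasts (interaction adjusted p = 0.0105). KFs replicate 2 held the lowest transplanted value of *Iigp1*, *Oasl2*, *Igtp*, *Ifit1*, *Isg15* and *Irf7*.

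*Igtp* (chr11:58199306-58199555) and *Gbp2*, a guanylate-binding protein (chr3:142620413-142620662, both plus strand), are shown because they are called members of small p whose 250 bases before the start hold the interferon-stimulated response element (letters GAAANNGAAA on either strand, in capitals). It was present in 12 of 21 promoters of the list, 8.04% of those of genes that rose in each organ and 3.25% of all.
Igtp: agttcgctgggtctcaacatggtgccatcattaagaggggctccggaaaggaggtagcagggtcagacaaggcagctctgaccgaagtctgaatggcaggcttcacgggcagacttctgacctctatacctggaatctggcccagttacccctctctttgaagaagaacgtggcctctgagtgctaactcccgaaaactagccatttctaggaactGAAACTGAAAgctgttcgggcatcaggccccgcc
Gbp2: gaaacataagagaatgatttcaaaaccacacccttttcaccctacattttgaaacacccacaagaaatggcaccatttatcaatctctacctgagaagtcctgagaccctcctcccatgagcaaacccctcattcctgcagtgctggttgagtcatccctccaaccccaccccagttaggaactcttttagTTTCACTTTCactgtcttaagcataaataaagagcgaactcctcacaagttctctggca

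Antigen presentation genes rose in 12 of 15 cases (median 2.22). *H2-K1*, a class I heavy chain, rose by 2.44 ± 0.21, with every transplanted library above every cultured one, and *Psmb8*, an immunoproteasome subunit, by 2.69 ± 0.21. *B2m*, the class I light chain, missed the fold limit on average (0.93 ± 0.27) and had organ values of 0.52 in heart, 0.02 in kidney and 2.29 in tail fibroblasts. *Cd74*, the class II invariant chain known from antigen-presenting cells, rose by 4.87 ± 0.58, with organ values of 4.38 in heart, 4.48 in kidney and 6.43 in tail fibroblasts, and was at most 19.3 CPM. The levels of leukocyte markers in each organ are given above. Complement genes rose in 10 of 13 cases and *Cd59a*, an inhibitor of membrane attack, fell (median 2.93). *Cfb*, factor B of the alternative pathway (chr17:34856374-34862518), lay between 13.2 and 1307 CPM (median 222) and between 0.372 and 6.05 CPM (median 1.01) in culture (7.31 ± 0.56). *C3*, the central component, lay between 286 and 9424 CPM (median 3398) against between 16.2 and 190.1 CPM (median 56.9) (5.64 ± 0.56), and *Serping1*, the C1 inhibitor, rose by 3.19 ± 0.31.

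Immediate early genes, AP-1 subunits among them, rose in 13 of 24 cases with 0 falling (median 1.16), 7 in each organ, and 13 differed between organs. *Fosb* (chr7:19302696-19310051) lay between 62.2 and 203 CPM (median 123.4) after transplantation and between 1.49 and 3.12 CPM (median 2.23) in culture, a rise of 5.70 ± 0.18 (adjusted p = 8.59e-13) with organ values of 6.14 in heart, 5.70 in kidney and 5.25 in tail fibroblasts. *Fos* rose by 3.74 ± 0.17 and *Junb* by 1.27 ± 0.08, whose organ values of 1.42, 1.23 and 1.14 were within 1 of each other at 95% confidence. *Egr1*, a zinc finger factor of the same early wave, rose more in heart (3.31 in heart, 1.62 in kidney and 1.66 in tail fibroblasts; interaction adjusted p = 2.76e-05). *Dusp1*, *Fosl1* and *Myc* had averages of 0.12, 0.05 and -0.06 and were not called.

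Glycolysis and hypoxia genes rose in 18 of 35 cases with 0 falling (median 1.09), 12 in each organ. *Pfkl*, a phosphofructokinase, lay between 117 and 259 CPM (median 196) against between 49.6 and 57.5 CPM (median 55) (1.78 ± 0.11). *Pdk1*, which diverts pyruvate from mitochondria, rose by 2.90 ± 0.21, *Kdm3a*, an oxygen-dependent histone demethylase, by 1.09 ± 0.07, and *Slc2a1*, a glucose carrier, by 1.34 ± 0.17. *Pgk1*, a glycolytic enzyme, reached 0.98 ± 0.15 and *Vegfa*, the vessel growth factor, 1.00 ± 0.23, neither past the fold limit. Without KFs replicate 3 both were called, at 1.01 and 1.10, and 20 of the 35 genes rose. *Ndufa4l2*, a hypoxia-induced mitochondrial protein, rose by 6.79 ± 0.53. Of 76 nuclear genes of the respiratory chain, *Ndufa4l2* included, 1 rose and 5 fell, a share near the 6.35% of all genes that fell. All transplanted libraries lay below all cultured ones for 25 of the 76, against 6.91% of all genes (median -0.52). *Ndufa11*, a complex I subunit, fell by 1.33 and *Uqcrq*, a complex III subunit, by 1.10 on the log2 scale. Of 13 mitochondrially encoded genes 2 rose, a share near the 16.4% of all genes, and 4 did without KFs replicate 3 (median 0.74). Of the 13, 10 were free of overlap on the higher side, against 6.67% of all genes, and *mt-Cytb*, cytochrome b, lay between 1828 and 3734 CPM (median 2372) against between 1326 and 1568 CPM (median 1393). The mitochondrial share of counts was 9.89% to 17.1% in transplanted and 7.30% to 8.27% in cultured libraries, and its part in these values was not tested.

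Of 32 genes of collagens and their processing 15 rose and 0 fell (median 0.71). *Col3a1* (chr1:45311538-45349706) lay between 4259 and 51690.0 CPM (median 22010.0) in transplanted and between 1158 and 6109 CPM (median 2941) in cultured libraries (2.94 ± 0.27), with organ values of 3.00 in heart, 2.80 in kidney and 3.03 in tail fibroblasts. Its lowest transplanted value, in KFs replicate 3, lay inside the cultured range, and without that library the average was 3.08. *Col1a1* rose by 1.82 ± 0.29 and *Col1a2* by 2.06 ± 0.25, the chains of type I collagen, and *Col5a3*, a chain of type V collagen, by 3.41 ± 0.28. *Bmp1*, which trims procollagen, rose by 1.22 ± 0.10, but by 0.96 without heart fibroblasts. *Lox*, the collagen crosslinking oxidase, had an average of -0.47 ± 0.20 (adjusted p = 0.0553). *Col4a1* of basement membranes had organ values of -0.36 in heart, -0.60 in kidney and 1.46 in tail fibroblasts (interaction adjusted p = 6.59e-06). *Dcn*, the proteoglycan decorin, rose by 4.42 ± 0.34 and *Pdgfra*, a PDGF receptor of fibroblasts, by 1.58 ± 0.21, while *Thy1* (CD90) was at -0.96 ± 0.23, short of the fold limit. KFs replicate 3 held the lowest transplanted value of *Col1a1*, *Col1a2*, *Dcn* and *Pdgfra*.

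Other matrix groups were mixed. Of 24 matricellular and elastic-fibre glycoprotein genes 10 rose and 5 fell (median 0.52), of 10 small proteoglycan genes 6 rose and 2 fell (median 1.38), and of 23 genes of matrix proteases and their inhibitors 11 rose and 4 fell (median 0.99). Of 28 lysosomal genes 4 rose and 0 fell (median 0.18), a share near the 16.4% of all genes that rose. Of these genes 11 were higher and 8 lower at an adjusted p below 0.05 without a fold limit. Of 21 p53 target genes 6 fell and 2 rose (median -0.73).

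**Figure D2:**
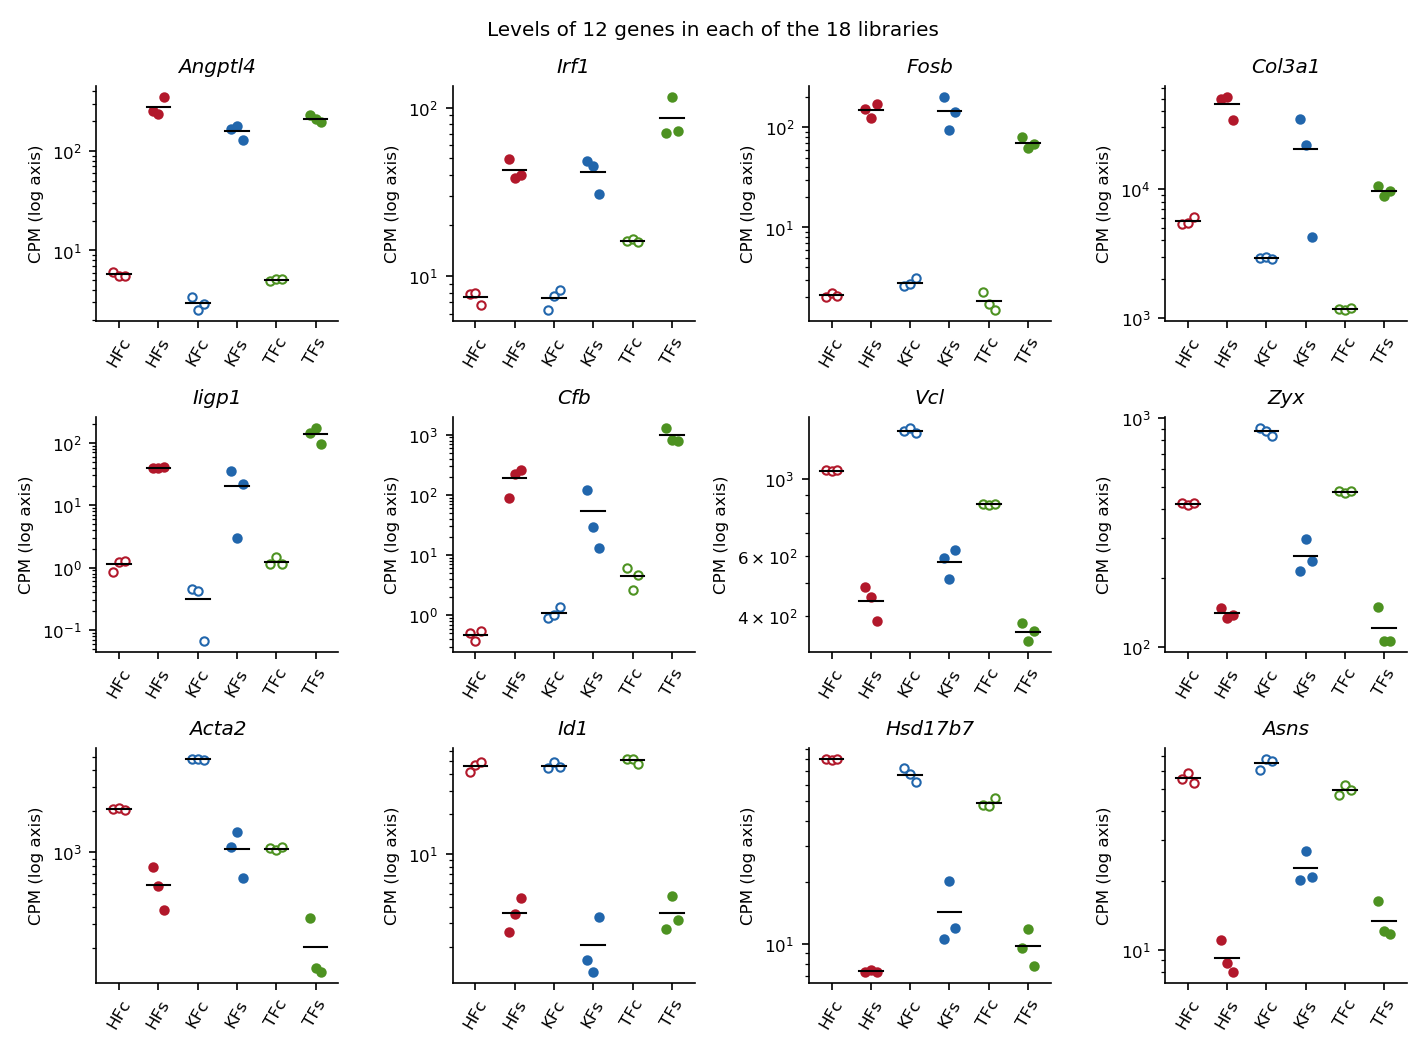
CPM (logarithmic axes) of 12 genes in each library of the 6 groups, with open points for cultured, filled points for transplanted libraries and a line at each group's mean. *Angptl4*, *Irf1*, *Fosb* and *Cfb* were higher and *Vcl*, *Zyx*, *Id1*, *Hsd17b7* and *Asns* lower in all 9 transplanted libraries, while 1 KFs value of *Col3a1* lay in the cultured range.

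Of 20 contractile genes 12 fell and 0 rose (median -1.48), and all 12 were called in each organ. The response of 6 of the 20 differed between organs, against 33.8% of all genes tested, and the list's median was -1.39 in heart, -1.39 in kidney and -1.42 in tail fibroblasts. *Vcl*, vinculin of focal adhesions (chr14:20929398-21033676), lay between 338 and 622 CPM (median 455) in transplanted and between 843 and 1415 CPM (median 1064) in cultured libraries (-1.26 ± 0.06; adjusted p = 1.93e-10), with organ values of -1.26 in heart, -1.27 in kidney and -1.23 in tail fibroblasts. *Cald1*, caldesmon, changed by -1.56 ± 0.10, *Actn1*, alpha-actinin, by -1.50 ± 0.10 and *Cnn2*, calponin 2, by -1.46 ± 0.11, and these 4 genes met the criterion of constancy given further on. *Acta2*, smooth muscle actin and the usual myofibroblast marker (chr19:34241090-34255590), changed by -2.14 ± 0.20, from between 1038 and 4838 CPM (median 2079) to between 133 and 1416 CPM (median 565). The ranges overlapped, since the cultured tail libraries lay below KFs replicates 1 and 2. *Tagln*, an actin-binding protein, changed by -2.33 ± 0.18. *Cnn1*, calponin 1, was less even, at -2.31 in heart, -3.36 in kidney and -4.99 in tail fibroblasts (interaction adjusted p = 0.00516). *Smtn*, *Synpo2* and *Des* were not called, at 0.02, -0.01 and 0.54.

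*Vcl* (chr14:20929148-20929397) and *Cnn2* (chr10:79988350-79988599, both plus strand) are shown because their 250 bases before the start hold the CArG box, the element bound by SRF, in capitals. It was present in 4 of 17 promoters of the contractile list, 4.74% of those of genes that fell in each organ and 1.45% of all.
Vcl: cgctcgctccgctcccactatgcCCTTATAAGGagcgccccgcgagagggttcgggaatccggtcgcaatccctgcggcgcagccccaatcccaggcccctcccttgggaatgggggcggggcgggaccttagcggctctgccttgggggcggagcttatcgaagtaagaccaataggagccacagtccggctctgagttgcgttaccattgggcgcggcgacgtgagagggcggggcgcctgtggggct
Cnn2: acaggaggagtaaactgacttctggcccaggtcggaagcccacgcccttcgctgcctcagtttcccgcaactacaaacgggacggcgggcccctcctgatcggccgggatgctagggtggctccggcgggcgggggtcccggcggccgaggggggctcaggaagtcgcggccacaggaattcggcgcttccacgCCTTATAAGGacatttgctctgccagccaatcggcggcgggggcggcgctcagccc

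YAP target genes fell in 8 of 16 cases and 1, *Nt5e*, rose (median -1.03), 4 falling in each organ. *Ccn2*, the connective tissue growth factor (chr10:24595442-24598683), lay between 49.4 and 412 CPM (median 239.8) after transplantation and between 497 and 2031 CPM (median 1290.0) in culture (-2.56 ± 0.17), with no overlap. *Lats2*, the kinase that feeds back on YAP, changed by -1.45 ± 0.10, *Ccn1*, a related matricellular protein, by -1.28 ± 0.13 and *Ankrd1*, an ankyrin repeat cofactor, by -3.49 ± 0.51, with organ values of -4.81 in heart, -1.39 in kidney and -4.21 in tail fibroblasts. Among the 15 largest falls under the same limits on overlap and level were 3 genes that respond to bone morphogenetic proteins: *Id1*, an inhibitor of differentiation factors (chr2:152736251-152737410), lay between 1.28 and 4.82 CPM (median 3.18) against between 41.4 and 52.2 CPM (median 47.8) (-3.98 ± 0.19; adjusted p = 2.41e-10), *Smad6*, an inhibitory SMAD, changed by -2.96 ± 0.14 and *Atoh8*, a helix-loop-helix factor, by -2.99 ± 0.34. They were chosen by size, and their likeness was seen afterwards. *Smpd3*, a neutral sphingomyelinase, had the largest fall under those limits (-5.52 ± 0.47), followed by *S100a4*, a calcium-binding protein often used as a fibroblast marker, at -4.15 ± 0.45 with organ values of -4.58 in heart, -5.60 in kidney and -2.24 in tail fibroblasts.

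Of 25 sterol genes 17 fell and 0 rose on average (median -1.42), 7 fell in each organ, and 24 of the 25 differed between organs. In kidney fibroblasts 4 of the 25 lay above 0. The list's median was -2.24 in heart, -0.65 in kidney and -1.08 in tail fibroblasts. *Hsd17b7*, an enzyme late in the pathway (chr1:169949535-169969241), lay between 7.29 and 20.4 CPM (median 9.53) against between 47.1 and 80.4 CPM (median 67.9) (-2.65 ± 0.18; adjusted p = 5.12e-09). *Sqle*, squalene epoxidase, changed by -3.32, -1.55 and -1.21 in heart, kidney and tail.

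*Hsd17b7* (chr1:169969206-169969455) and *Sc5d*, sterol C5 desaturase (chr9:42264301-42264550, both minus strand), are shown for the CCAAT box (either strand, in capitals), which was present in 16 of 17 promoters of the sterol list, 42.2% of those of genes that fell in each organ and 39.9% of all. The CCAAT box was not particular to this list, with 15 of 16 promoters of unfolded protein response genes, given below, also holding it. The sterol response element (letters TCACNCCAC) was present in 1 of the 17 and 1.26% of all.
Hsd17b7: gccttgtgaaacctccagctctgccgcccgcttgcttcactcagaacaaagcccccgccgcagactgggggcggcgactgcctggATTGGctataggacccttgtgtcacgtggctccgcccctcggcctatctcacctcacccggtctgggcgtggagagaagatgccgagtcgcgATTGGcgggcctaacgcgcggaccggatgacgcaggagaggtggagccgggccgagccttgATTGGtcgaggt
Sc5d: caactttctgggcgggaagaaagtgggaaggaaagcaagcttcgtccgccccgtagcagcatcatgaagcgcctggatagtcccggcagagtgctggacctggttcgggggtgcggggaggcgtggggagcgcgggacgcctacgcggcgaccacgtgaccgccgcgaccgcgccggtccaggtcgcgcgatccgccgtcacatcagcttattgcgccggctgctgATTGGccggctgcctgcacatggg

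Genes of amino acid supply under ATF4 fell in 7 of 19 cases with 0 rising (median -0.84), and all 7 fell in each organ. *Asns*, asparagine synthetase (chr6:7675169-7693254), lay between 8.01 and 26.9 CPM (median 12) against between 47.4 and 67.8 CPM (median 55.2) (-1.99 ± 0.14). *Psph* and *Phgdh*, enzymes of serine synthesis, changed by -1.50 ± 0.10 and -2.44 ± 0.19, and *Chac1*, a glutathione-degrading enzyme, by -3.56 ± 0.41. Of 16 targets of Nrf2 and the aryl hydrocarbon receptor 7 fell and 0 rose (median -0.87), but 1 in each organ. This was *Nqo1*, a quinone reductase, with organ values of -1.58 in heart, -4.05 in kidney and -2.70 in tail fibroblasts (interaction adjusted p = 8.85e-05). *Ftl1*, the ferritin light chain, changed by -1.13 ± 0.09, and *Hmox1*, heme oxygenase, by -1.30 ± 0.22. Each fell short of the fold limit without a given organ: *Ftl1* was at -0.91 without kidney and *Hmox1* at -0.92 without tail fibroblasts. Genes of the unfolded protein response gave 0 calls of 18 (1 higher and 12 lower at an unadjusted p below 0.05, 0 higher and 0 lower by DESeq2), and of 79 ribosomal protein genes 1 fell and 0 rose (median -0.35). Without a fold limit 51 of the 79 were lower and 0 higher at an adjusted p below 0.05.

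**Figure D3:**
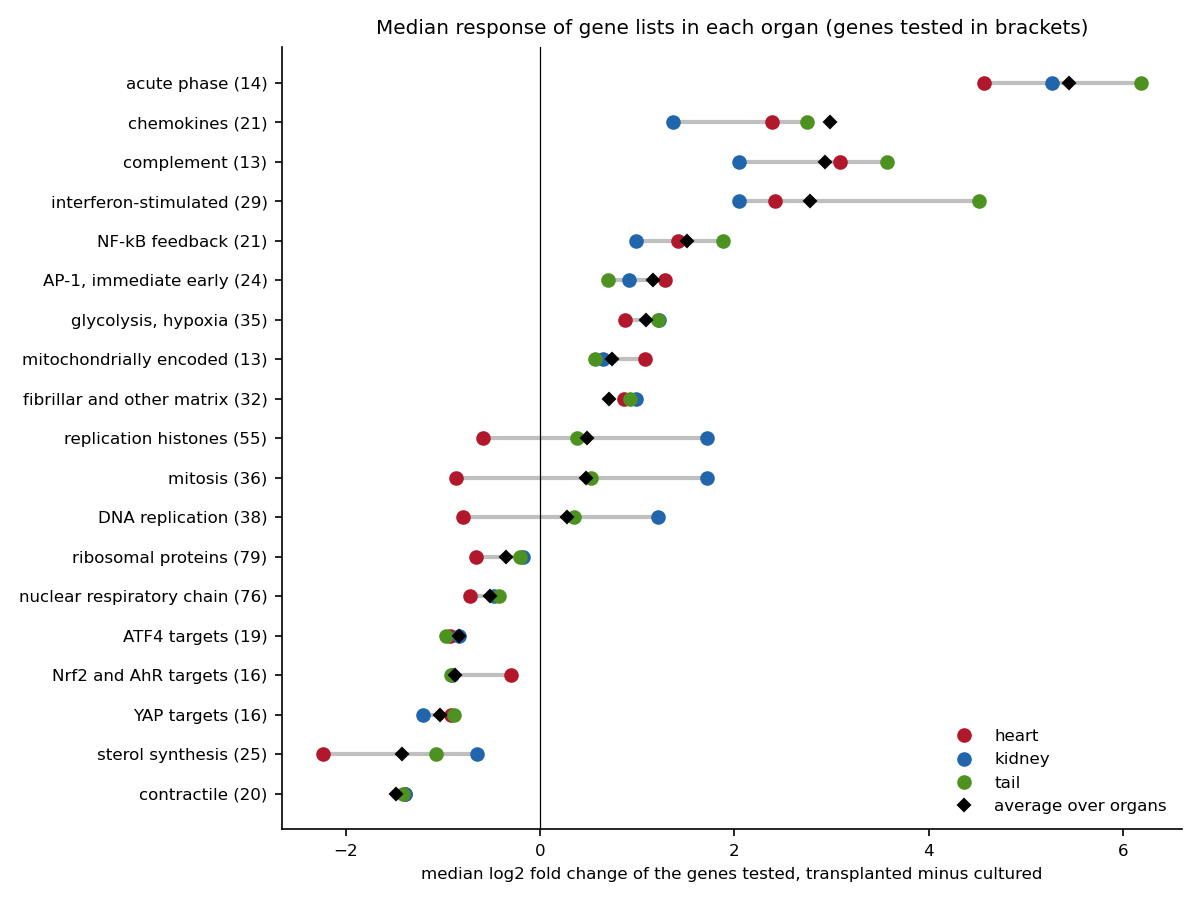
Median log2 fold change of transplanted over cultured cells for 19 gene lists (genes tested in brackets) in heart, kidney and tail fibroblasts, with a diamond for the median of the average response. The organ medians of contractile genes lie together near -1.4, whereas those of mitosis genes lie on both sides of 0, from -0.87 in heart to 1.72 in kidney fibroblasts.

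Constancy was measured in 3 ways. By sign, 95% of the genes that rose on average and 87.2% of those that fell had the same sign in heart, kidney and tail fibroblasts, against 61% of all genes tested. Since the average is made of the 3 organ values, the choice of genes by a large average favours a like sign. By call, 878 genes rose in each organ on its own (5.30% of genes tested) and 291 fell (1.76%), and 231 of the 3763 genes called on average were called in 0 organs alone. By size, the response differed between organs for 5605 genes (33.8%; interaction test with 2 degrees of freedom, adjusted p below 0.05). This held for 25.7% of the genes that rose and 47.1% of those that fell. Without KFs replicate 3 the number was 7782, which included 5444 of the 5605. A gene of wide spread can miss this test, so the smaller share among rises does not show that they were more even. The 95% interval of every difference between organs lay within 1 on the log2 scale for 2.73% of the genes that rose and 11.9% of those that fell. The median organ values of the genes that rose were 2.17 in heart, 1.77 in kidney and 1.70 in tail fibroblasts, and those of the genes that fell were -1.53, -1.68 and -1.27. Where sizes differed, heart fibroblasts stood farthest from the others for 51.5% of genes.

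Split by source, the variation of log2 levels between libraries was 33.2% state, 36.8% organ, 11.1% an organ-specific part of the response and 19.0% residual, summed over all genes. A test that treated the 3 organs as the replicates (limma on 3 differences of means) called 0 genes (smallest adjusted p = 0.0642; 6082 genes at an unadjusted p below 0.05).

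A strict measure was also used: a gene was constant when it was called in each organ with 1 sign and the 95% interval of every difference between organs lay within 1 on the log2 scale. Of the 1169 genes called in each organ, 50 rising and 62 falling genes were constant (9.58%), and 87 of the 112 were so without KFs replicate 3. *Angptl4*, a lipoprotein lipase inhibitor raised by fasting and hypoxia (chr17:33773750-33781830), had the largest constant rise: transplanted libraries lay between 130.3 and 353 CPM (median 209) and cultured ones between 2.51 and 6.12 CPM (median 5.13) (5.57 ± 0.11; adjusted p = 1.46e-15), with organ values of 5.59 in heart, 5.75 in kidney and 5.38 in tail fibroblasts. *Irf1* came next, followed by *Bnc2*, a zinc finger protein, at 2.16 ± 0.09, *Lsp1*, an actin-binding protein, at 1.90 ± 0.13, *Itgb8*, an integrin chain that activates TGF-beta, at 1.82 ± 0.12 and *Zfp36l1*, which binds unstable mRNA, at 1.72 ± 0.12. Among the constant falls were *Crip2*, a LIM protein whose transplanted libraries lay between 27.5 and 66.7 CPM (median 36.8) and cultured ones between 116 and 230.5 CPM (median 152), *Rras2*, a small GTPase, *Zyx*, zyxin of focal adhesions, *Alcam*, an adhesion molecule, and *Dstn*, the actin-severing destrin, at -1.90, -1.82, -1.80, -1.77 and -1.77. Intervals within 1 do not exclude small differences: the interaction test called *Rras2* (adjusted p = 0.0297) and *Dstn* (adjusted p = 0.0311). The states overlapped for 2 of these constant genes. They were *Itgb8*, with transplanted libraries between 14.3 and 115 CPM (median 33.8) and cultured ones between 6.15 and 26.9 CPM (median 12.2), and *Alcam*, with between 8.7 and 41.4 CPM (median 13.3) against between 35.4 and 96.7 CPM (median 49.8).

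**Figure D4:**
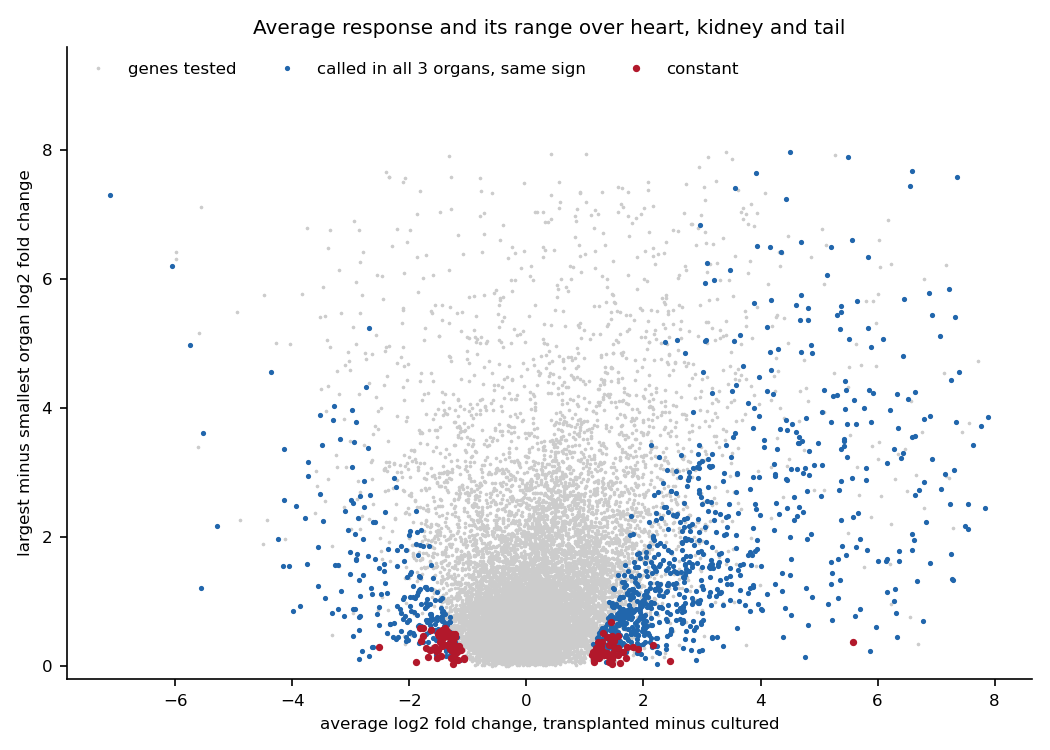
Average log2 fold change of each gene tested (horizontal axis) against the difference between its largest and smallest organ value (vertical axis, log2), with genes called in all 3 organs in blue and constant genes in red. The 112 constant genes lie at the foot of the plot, and 118 genes beyond 8 on either axis are not drawn.

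Cell cycle genes had values of different sign in the 3 organs. All 36 mitosis genes differed between organs by the interaction test, with 36 above 0 in kidney and 36 below 0 in heart fibroblasts, and 34 above 0 in tail fibroblasts. The medians were 1.72, -0.87 and 0.52, and on average 0 of the 36 were called (9 higher and 1 lower at an unadjusted p below 0.05, 2 higher and 0 lower by DESeq2). *Mki67*, the proliferation antigen (chr7:135689784-135716361), had 235, 164 and 222 CPM in HFs against 254, 257 and 239 CPM in HFc, and 359, 574 and 253 CPM in KFs against 79.9, 81 and 82.7 CPM in KFc. *Cdk1*, the mitotic kinase, had organ values of -1.21 in heart, 1.47 in kidney and 0.25 in tail fibroblasts (interaction adjusted p = 5.14e-04). DNA replication genes differed in 31 of 38 cases and *Mcm2*, a helicase subunit, had organ values of -1.59 in heart, 1.25 in kidney and 0.04 in tail fibroblasts. Replication histones differed in 37 of 55, and *Hist1h1b*, a linker histone, rose by 1.29 ± 0.35 on average but by 0.58 (adjusted p = 0.103) without kidney fibroblasts. Histone genes are near-identical copies, so their counts are uncertain. *Rrm2*, a subunit of ribonucleotide reductase, fell by 1.95 on the log2 scale, with organ values of -2.68 in heart, -0.93 in kidney and -2.25 in tail fibroblasts.

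Some genes were called in opposite directions in different organs. They numbered 223 (1.35% of genes tested), of which 216 were not called on average. *Tnfrsf11b*, osteoprotegerin, a decoy receptor (chr15:54250619-54278484), had the smallest interaction p (adjusted p = 5.85e-09): its organ values were -2.70 ± 0.13 in heart, -1.78 ± 0.12 in kidney and 1.75 ± 0.14 in tail fibroblasts. The levels were 19.3, 20.4 and 23.6 CPM in HFs against 139, 139 and 135 CPM in HFc, and 12.9, 9.77 and 10.7 CPM in TFs against 3.92, 3.1 and 2.81 CPM in TFc. The organs differed widely in culture and were closer after transplantation, where all 9 libraries lay between 9.77 and 23.6 CPM (median 16.7). *F5*, coagulation factor V, had organ values of 6.80 ± 0.37 in heart, 1.59 ± 0.29 in kidney and -1.68 ± 0.26 in tail fibroblasts (adjusted p = 1.07e-07), and *Cxcl14*, a chemokine of epithelia and fibroblasts, of 2.39 ± 0.27 in heart, -3.35 ± 0.24 in kidney and -1.13 ± 0.20 in tail fibroblasts (adjusted p = 4.20e-07). *Thsd7a*, a membrane protein, was at 1.46, -0.17 and -1.13 in heart, kidney and tail, *Tpbg*, a Wnt-modulating glycoprotein, at 1.85, 0.03 and -1.12 and *Dhrs3*, a retinal reductase, at 2.64, 0.37 and -1.19. *Adcy5*, an adenylyl cyclase, was at 2.21, -1.54 and -1.15, while *Akr1b8*, an aldo-keto reductase, rose in tail and fell in heart (-1.06, 0.45 and 1.06).

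**Figure D5:**
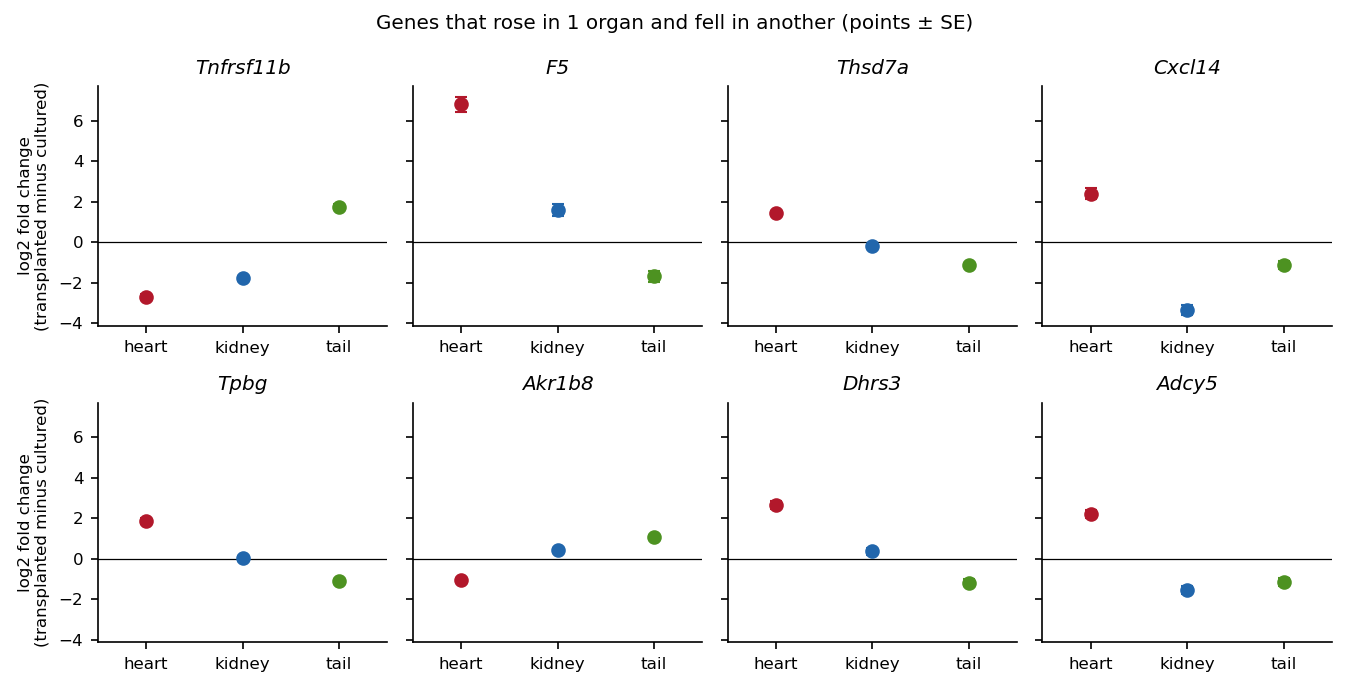
Log2 fold change ± SE of transplanted over cultured cells in heart, kidney and tail fibroblasts for the 8 genes of smallest interaction p that were called in opposite directions. *Tnfrsf11b* and *Akr1b8* were highest in tail fibroblasts, and the other 6 were highest in heart fibroblasts.

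Other genes of small interaction p were called in 1 or 2 organs, never in opposite directions. *Htra1*, a serine protease of the matrix, had organ values of 0.02 in heart, 1.42 in kidney and 3.10 in tail fibroblasts (interaction adjusted p = 1.07e-07), and transplanted libraries lay between 55.9 and 78.6 CPM (median 65.3) against between 7.15 and 65.4 CPM (median 26.5) in culture. *Egfr*, the epidermal growth factor receptor, was at 2.10 in heart, 0.17 in kidney and 2.16 in tail fibroblasts, and *Fmnl2*, an actin-nucleating formin, at 3.85 in heart, 0.77 in kidney and 0.61 in tail fibroblasts. *Gpc4*, a glypican, fell in heart and kidney (-2.09, -2.61 and 0.02 in heart, kidney and tail), *Hsph1*, a chaperone, in heart and tail (-2.13, 0.42 and -1.25) and *Itga4*, an integrin chain, in heart (-2.04, 0.09 and 0.98). *Zfp503*, a zinc finger repressor, rose in heart (1.66, -0.81 and -0.85).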

How the data were processed

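The authors deposited 1 table of RSEM expected counts per gene, already whole numbers, for 18 libraries of stranded total RNA (single-end reads). The study's methods name RSEM with Bowtie2 and GRCm38, while the submitters' processing notes name mm9, Bowtie and RSEM. The annotation release is not given in the sources used here. Gene positions are from a GRCm38 annotation matched by identifier, and promoters from RefSeq (GRCm38.p6).

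Of 38924 genes, 16577 passed edgeR's expression filter. Counts were scaled by TMM (CPM of single genes use these factors, those of *Xist* and Y-linked genes the totals) and tested with the quasi-likelihood F-test in edgeR 4.0.16 (R 4.3.3) with Benjamini-Hochberg adjustment. The average effect used organ and state as additive factors, and organ values and the interaction used group means. A call required an adjusted p below 0.05 and a log2 fold change beyond 1. Where no library of a state exceeded 3 counts, the fitted fold change depends on the prior count, and a lower bound is given instead. Totals of 17927838 to 32245168 counts set the floor of 3 counts at 0.0890 to 0.180 CPM. Read counts are not counts of molecules, so floors cover counting error only.

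Named genes were the 15 largest rises and 15 largest falls of protein-coding genes free of overlap with a mean of at least 10 CPM in the higher state, the 6 largest constant rises and falls at that level, the 12 smallest interaction p-values, up to 8 genes of opposite calls and, per list, key members and the 3 called members of smallest p, of which the most informative are printed. *Ccl17*, *Nt5e*, *Cd59a*, *Ptprc*, *Ptprb*, *Csf3r*, *Cxcr2*, *Cd3d*, *Dusp1*, *Fosl1*, *Myc*, *Smtn*, *Synpo2* and *Des* were named after their values were seen. Members and lists were chosen with earlier results of these data known. The study calls the 3 libraries of a group biological replicates, with 1 tube of cells for each kidney transplanted. Whether donors or cultures also differed is not given in the sources used here, so p-values measure the spread between these libraries, which may in part be technical. Alternatives were other scalings, filters, thresholds, limma 3.58.1, DESeq2 1.42.0, thinning, replicate blocks and leaving out each library or organ. The code was tested on simulated data. Some named genes are not reported here.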

Additional observations from a re-analysis of the deposited data

Results flagged for a closer look

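Among 28 sets of 9 libraries of one state, 6 held a library far from the other 8. How many such cases chance would give was not tested. *Xist* was 1716 CPM in KFs replicate 3 against at most 0.396 CPM in the next library, and Y-linked genes summed to 0.830 CPM there against 185.1 CPM in the nearest transplanted library. The summed epithelial markers of the same library were 138.7 CPM, with 22.1 CPM in the next. HFs replicate 2 had the highest sum of proximal tubule markers, 2049 CPM against 603.5 CPM, and HFs replicate 3 the highest mitochondrial share, 17.1% against 12.2%. In culture, KFc replicate 3 had the highest sum of distal tubule markers, 0.831 CPM against 0.386 CPM.

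The response to transplantation differed between organs for the 15 genes named for such a difference (edgeR quasi-likelihood interaction test, Benjamini-Hochberg). Further named genes passed the same test, as given above. The adjusted p was 5.85e-09 for *Tnfrsf11b* and 1.07e-07 for *Htra1*, *F5*, *Thsd7a* and *Hsph1*. It was 1.22e-07 for *Gpc4*, *Fmnl2* and *Egfr*, 2.26e-07 for *Itga4*, 4.20e-07 for *Cxcl14*, 4.74e-07 for *Zfp503* and 4.91e-07 for *Tpbg*. *Akr1b8* followed at 6.22e-07, and *Dhrs3* and *Adcy5* at 1.15e-06. These genes were named for small interaction p-values, so the values describe the choice.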

How the results depend on the processing

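Without a fold limit 5103 genes rose and 4760 fell, 1660 and 1807 in each organ, and 501 and 1177 were constant. A log2 limit of 2 left 1205 and 285. At an adjusted p of 0.01 the response differed between organs for 3173 genes, and with organs as replicates 0 rose and 0 fell. Leaving out 1 library gave 2682 to 2911 rises, 1030 to 1151 falls, 755 to 913 rises and 269 to 342 falls in each organ, 42 to 63 constant rises, 50 to 80 constant falls and 4532 to 7782 interactions, the last without KFs replicate 3. Libraries of like number gave no sign of pairing (correlations -0.0423 to 0.0450, and -0.0484 to 0.0623 for unlike numbers). With 3 libraries per group this cannot exclude a shared donor or culture. A replicate block of 9 organ-by-number pairs gave 2437 rises and 1027 falls, and a replicate block of numbers 1 to 3 gave 5226 interactions. Alternatives were run for 128 genes with an average effect and 15 with a difference between organs, and 0 of those called changed sign. They were not run for the genes named after their values were seen. Averages near 0 that were not called did. *Mcm2* ranged from -0.243 to 0.117 with 1 library left out (above 0 without any 1 HFs library) and was 0.64 without heart. *Cdk1* ranged from -0.0124 (without KFs replicate 2) to 0.324 and was -0.481 without kidney. *Ptgs2* ranged from -0.364 to 0.0940 (above 0 without TFs replicate 2 or 3) and was 0.0913 without kidney and 0.557 without tail. *Col4a1* ranged from -0.00914 (without TFc replicate 2) to 0.245 and was -0.491 without tail. *Ftl1* was -0.91 without kidney and no longer called. The causes were not tested. Thinning to the smallest total gave 2498 rises and 1023 falls.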
